A study of Mus musculus with 24 samples.

Results

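The subject here is a set of 8 immune receptors of the cell surface: Cd22, Cd84, Ly9, Slamf9, Cd300c2, Cd180, Cd52 and Lag3. They were taken by name from the 22274 genes of the deposited table, and all 8 were found there. They were picked with earlier results on these libraries in view, on their levels over the 8 groups, on day 3 against day 10 and on the comparisons with growth hormone (GH). Their values in both tissues are therefore a description and carry no test. RNA was sequenced from mouse hypothalamus and hippocampus in 24 libraries, 3 for each of 8 groups. The lesion was PEL, an electrical lesion of the pituitary stalk, which cuts the axons that carry oxytocin and vasopressin to the posterior pituitary. The 6 hypothalamic groups were Sham (labelled day 0), PEL at day 3 (PEL_3d), PEL at day 10 (PEL_10d) and each of these with GH (Sham_GH, PEL_3d_GH, PEL_10d_GH). The 2 hippocampal groups were HIP_Sham and HIP_PEL_10d. Since Sham was labelled day 0, lesion and time after surgery cannot be told apart, and the labels give no dose or route for GH. The study used male C57BL/6J mice, and the labels give no age. Nothing in the labels says that the replicates were separate animals, so p-values measure the spread between these libraries only.

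These receptors set the threshold at which myeloid cells and lymphocytes respond. Cd84, Ly9 and Slamf9 belong to the SLAM family, whose members mostly bind a copy of themselves on the next cell and signal through small adaptors of the SAP and EAT-2 type. Cd22 is a Siglec, a lectin that binds sialic acid and calls phosphatases through inhibitory tyrosine motifs. Cd300c2 is an activating receptor of the CD300 family of lipid sensors. Cd180 resembles a Toll-like receptor without a signalling domain and is held at the surface by its partner Ly86 (MD-1). Cd52 is a short peptide on a lipid anchor that carries a large sugar chain. Lag3 is a relative of Cd4 that binds MHC class II and restrains T cells, and neurons and microglia also express it.

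3 of the genes lie on mouse chromosome 1 of GRCm38 within the SLAM cluster and its surroundings: Ly9 at chr1:171588624-171607410 on the minus strand, Cd84 at chr1:171839697-171890718 on the plus strand and Slamf9 at chr1:172475358-172478575 on the plus strand. Cd22 lies at chr7:30865402-30880342 (minus), Cd300c2 at chr11:114996721-115001880 (minus), Cd180 at chr13:102693558-102739629 (plus), Cd52 at chr4:134082448-134095082 (minus) and Lag3 at chr6:124904361-124911705 (minus). Counts were not stated to use strand. Of the exonic bases, 14.5% in Cd52 are also exonic in Crybg2, 9.50% in Cd22 in the antisense gene Gm29439 and 4.04% in Cd180 in Mast4. Reads from these stretches cannot be assigned to 1 gene. Ly9 lies inside Cd244a on the other strand and shares no exonic base with it, and Cd300c2 has close paralogs that may share reads.

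The RefSeq promoter table for GRCm38.p6, with 250 bases before and 50 after each start, holds 5 of the receptors and not Ly9, Cd52 or Lag3. The start regions of 3 are shown because each holds 1 letter match to a motif of factors known from myeloid cells. Capitals mark the match. The motifs were GAGGAAGT (PU.1), TGANTCA (AP-1) and an ISRE-like (interferon response) motif, searched on both strands. They are found in 3.20%, 7.81% and 3.44% of the 32851 promoters of the table.
Slamf9, chr1:172475110-172475409, plus strand: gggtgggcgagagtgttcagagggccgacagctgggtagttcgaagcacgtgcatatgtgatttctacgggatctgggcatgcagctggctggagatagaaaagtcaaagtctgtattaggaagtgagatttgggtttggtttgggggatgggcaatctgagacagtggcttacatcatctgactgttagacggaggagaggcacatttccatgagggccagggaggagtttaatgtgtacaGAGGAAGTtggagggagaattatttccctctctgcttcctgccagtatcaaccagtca
Cd84, chr1:171839447-171839746, plus strand: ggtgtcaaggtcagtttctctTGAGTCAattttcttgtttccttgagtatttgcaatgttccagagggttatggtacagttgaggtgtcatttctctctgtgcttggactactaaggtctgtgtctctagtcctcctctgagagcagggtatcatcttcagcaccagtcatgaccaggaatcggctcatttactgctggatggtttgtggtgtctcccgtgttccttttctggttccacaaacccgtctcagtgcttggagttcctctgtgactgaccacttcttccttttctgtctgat
Cd300c2, chr11:115001831-115002130, minus strand: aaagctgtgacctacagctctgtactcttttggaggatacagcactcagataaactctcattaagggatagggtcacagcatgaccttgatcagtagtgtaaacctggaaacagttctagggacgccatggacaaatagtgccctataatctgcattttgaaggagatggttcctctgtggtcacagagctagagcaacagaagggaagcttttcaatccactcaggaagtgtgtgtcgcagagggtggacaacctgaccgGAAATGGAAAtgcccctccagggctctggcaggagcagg
Slamf9 held the PU.1 letters, Cd84 the AP-1 letters and Cd300c2 the interferon response letters. The windows of Cd22 and Cd180 held none of the 3. A match is a string of letters and not evidence of binding.

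Several libraries went against their labels. The library labelled Sham 1 had 92.2 FPKM of the hippocampal gene Neurod6 and 0.453 FPKM of Avp, against at most 0.246 and at least 140 FPKM in the other 2 Sham libraries. It was left out of the main comparisons, as the study left out 1 Sham sample, and added back in an alternative. The library labelled HIP_Sham 1 had 139 FPKM of Avp and 0.429 of Neurod6, while every other hippocampal library had at least 99.1 FPKM of Neurod6. HIP_Sham 3 carries the tissue label hypothalamus but had 143 FPKM of Neurod6. PEL_10d_GH 3 had 5479 FPKM of Pomc and 32.4 of Prl, against at most 30.2 and 5.05 in the other 2 libraries of its group. Total counts were 15095267 to 17973494 per library. Genes at 3 counts or fewer in a library were treated as near the limit of detection, called the floor here. Levels below are CPM (counts scaled to library size, after TMM) unless FPKM, the level per length, is named.

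All 8 receptors were above Sham at both days after PEL, Lag3 by the least at day 3. In each of the 12 lesioned hypothalamic libraries every receptor was higher than in every Sham and Sham_GH library, Sham 1 included. Against the Sham group 8 of 8 passed the edgeR threshold as higher at day 3, where 22.2% of all 14905 genes tested did. At day 10 it was again 8 of 8, where 7.97% of 14801 genes were called higher. The contrast chose these genes, so nothing is read from these counts. Cd22, Ly9 and Slamf9 had too few counts in Sham and passed the filter on low counts only through the lesioned libraries. The median log2 fold change of the 8 was 4.10 at day 3 and 3.04 at day 10, against -0.01 over all genes at both. In bulk tissue a change in the number of cells and a change in RNA per cell cannot be told apart.

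**Figure D1:**
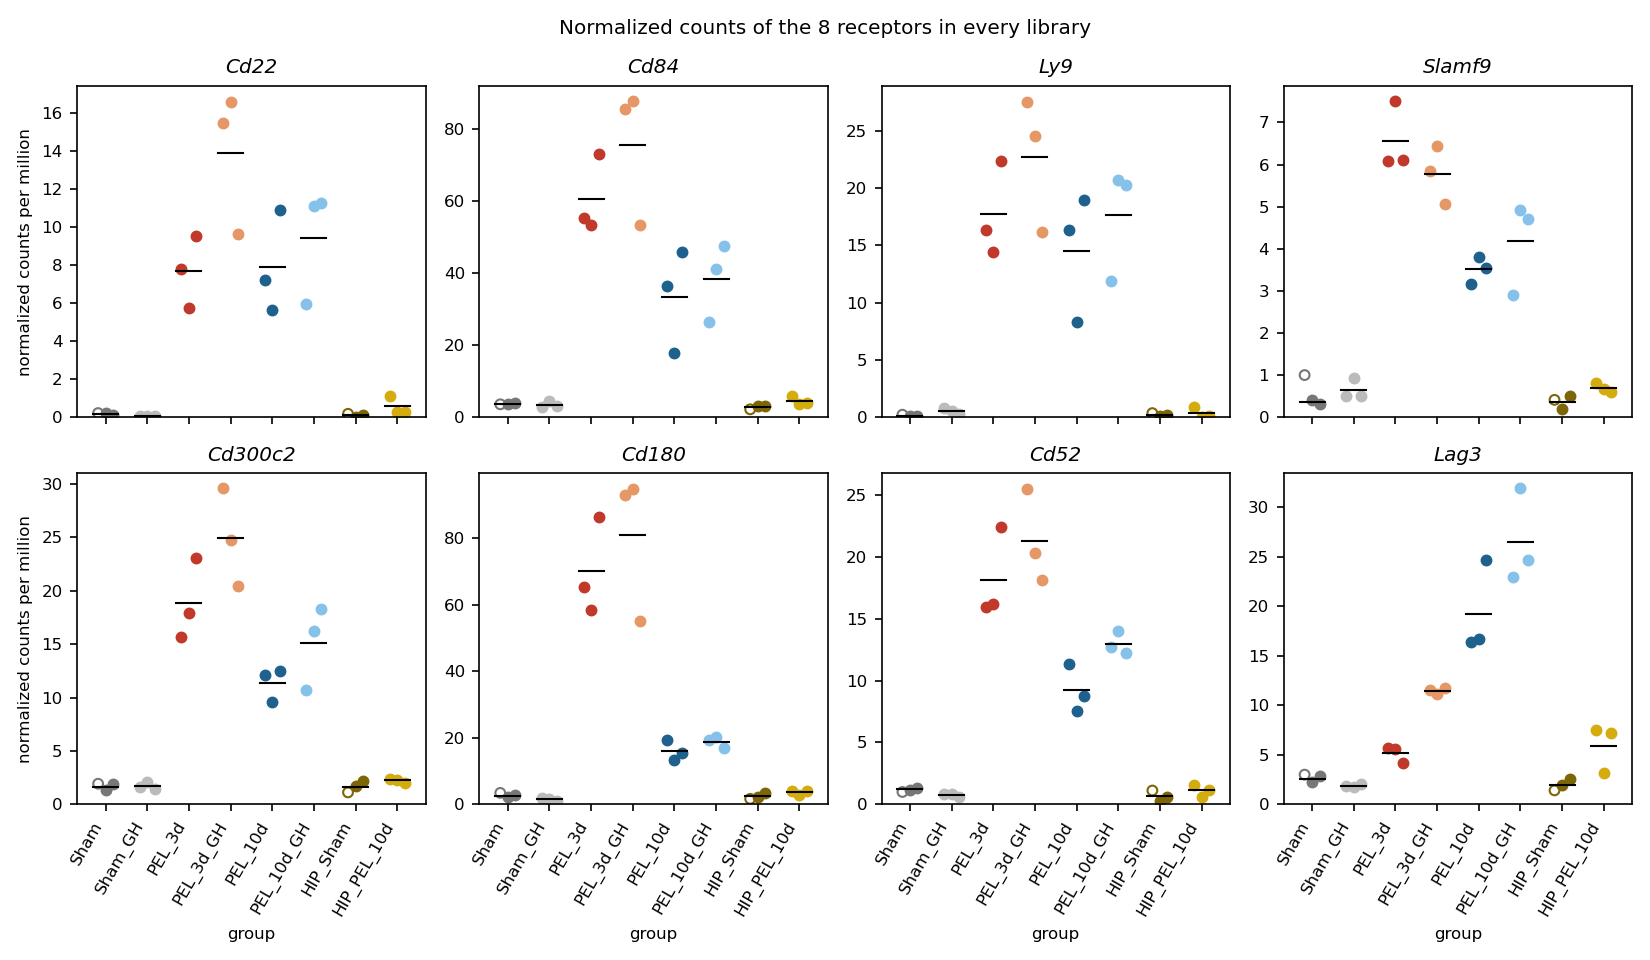
Normalized CPM (vertical axis, linear, from 0) of each receptor in each library, by group (horizontal axis). Points are libraries, black lines are group means, and open circles are the libraries labelled Sham 1 (left out of its mean) and HIP_Sham 1. 7 receptors have their highest group mean at day 3, and Lag3 has it at day 10 with GH, at 26.5 CPM.

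Cd84 was the most abundant of the 3 SLAM receptors by CPM in every group. Cd84 had 3.62 and 3.82 CPM in Sham, 55.3, 53.3 and 73.0 in PEL_3d and 36.2, 17.9 and 45.9 in PEL_10d. The lowest lesioned library, PEL_10d 2, was far above both Sham libraries. Its log2 fold change from Sham was 4.02 (SE 0.18) at day 3 and 3.16 (SE 0.40) at day 10. Ly9 was almost undetected without a lesion, with 2 and 1 counts in Sham. It had 16.3, 14.4 and 22.4 CPM in PEL_3d and 16.4, 8.28 and 19.0 in PEL_10d. As Sham stood at or under the floor, the change is given as a ratio of summed counts with a 95% counting interval: 181 (61.7 to 879) at day 3 and 147 (50.1 to 715) at day 10. Slamf9, expressed on myeloid cells, had 0.402 and 0.318 CPM in Sham and was the least abundant of the 3 in the lesioned hypothalamic groups. It had 6.09, 7.50 and 6.11 in PEL_3d and 3.16, 3.81 and 3.55 in PEL_10d, and the 3 groups did not overlap. Its log2 fold change from Sham was 4.17 (SE 0.33) at day 3 and 3.26 (SE 0.36) at day 10. With Sham 1, where Slamf9 had 14 counts, these were 3.55 and 2.64.

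Cd22, best known as a brake on B cell receptor signalling, was also near absent in Sham, with 3 and 2 counts. In PEL_3d it had 7.78, 5.75 and 9.51 CPM and in PEL_10d 7.19, 5.66 and 10.9. The ratio to Sham was 47.1 (20.0 to 146) at day 3 and 48.1 (20.4 to 149) at day 10, by summed counts with the same interval. The libraries of the 2 days overlapped. Of the B cell markers Ms4a1 (CD20) was near 0 in the same libraries, at most 0.041 FPKM in PEL_3d and 0.021 in PEL_10d, while Cd79b, a chain of the B cell receptor, had 1 to 2 counts in Sham, 9 to 23 in PEL_3d and 5 in each PEL_10d library. The summed FPKM of the 8 B cell markers was 10.7 to 15.3 in PEL_3d and 8.50 to 14.0 in PEL_10d, against 6.86 to 7.41 in Sham. Of those 8 genes 3 were tested at day 3 and 2 at day 10. By edgeR 2 were called higher at day 3 (Cd79b and Ighm) and 0 at day 10, with 3 and 1 at an unadjusted p under 0.05, and their part in the Cd22 result was not tested.

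Cd180, which damps Toll-like receptor 4 signals in myeloid cells, had the highest mean CPM of the 8 at day 3, with a range that overlapped that of Cd84. It had 2.14 and 2.93 CPM in Sham, 65.3, 58.4 and 86.3 in PEL_3d and 19.4, 13.2 and 15.6 in PEL_10d. The 3 groups were separate, and the day 10 libraries lay between the other two. The log2 fold change from Sham was 4.78 (SE 0.22) at day 3 and 2.65 (SE 0.23) at day 10. Its partner Ly86 followed the same order. Ly86 is no member and was tested, but the list that holds it was chosen with earlier results of these data known. Its p-values are therefore not independent support. Ly86 rose from 7.24 ± 0.384 CPM (SD, n = 2) in Sham to 67.9 ± 7.68 (n = 3) in PEL_3d, a log2 fold change of 3.23 (SE 0.13, adjusted p = 7.41e-08) by edgeR. At day 10 it stood at 22.2 ± 2.52 CPM, a change from Sham of 1.62 (SE 0.14, adjusted p = 0.000571).

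Cd300c2 had 1.34 and 1.91 CPM in Sham, 15.6, 17.9 and 23.0 in PEL_3d and 12.1, 9.59 and 12.5 in PEL_10d. Cd52 had 1.14 and 1.34 CPM in Sham, 15.9, 16.2 and 22.4 in PEL_3d and 11.3, 7.51 and 8.78 in PEL_10d. In both genes the 3 groups were separate. The log2 fold changes from Sham for Cd300c2 were 3.53 (SE 0.25) at day 3 and 2.80 (SE 0.24) at day 10, and for Cd52 3.87 (SE 0.24) and 2.88 (SE 0.27). The deposited FPKM of Cd22, Cd84 and Cd180 did not scale exactly with their counts between libraries, so changes between libraries are given in CPM. Per length Cd52 had the highest mean in PEL_3d, with 31.5, 32.1 and 43.9 FPKM, followed by Cd180 with 25.7, 23.2 and 35.4 and Cd84 with 23.7, 24.5 and 31.0. Cd180 overlapped both of the others. Siglecg, the mouse counterpart of the Siglec that binds soluble CD52, had 1 to 2 counts in the PEL_3d libraries and 0 to 2 in PEL_10d and stayed under the floor. Cd22 had 4.08, 2.24 and 4.28 FPKM, Slamf9 4.71, 5.83 and 4.69 and Lag3 2.88, 2.87 and 2.08, and Lag3 overlapped Cd22 at the low end.

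Lag3 took the other course. It had 2.21 and 2.86 CPM in Sham, 5.67, 5.63 and 4.14 in PEL_3d and 16.4, 16.7 and 24.7 in PEL_10d. The day 3 libraries lay just above Sham and the day 10 libraries far above both. The log2 fold change from Sham was 1.02 (SE 0.26) at day 3, a call that was lost without Sham 2, as was that of Cd84 at day 10, and 2.91 (SE 0.25) at day 10. T cell transcripts were also higher at day 10 than at day 3, though low at both: Cd3e was 0 to 0.044 FPKM in PEL_3d and 0.222 to 0.410 in PEL_10d. The summed FPKM of the 10 T and NK cell markers was 1.58 to 2.48 in PEL_3d and 3.28 to 5.33 in PEL_10d, against 1.32 to 1.73 in Sham. At day 10 against Sham 1 of 3 tested was called higher. Of those 10 genes 2 had enough counts for the test of day 10 against day 3, none passed it in edgeR and none had an unadjusted p under 0.05. Their part in the Lag3 result was not tested.

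Day 10 against day 3 set the receptors apart from each other. Cd180 fell the most, by 2.12 on the log2 scale (SE 0.17), to 0.230 of its day 3 level, and no library overlapped. Cd52 (-0.98, SE 0.19), Slamf9 (-0.90, SE 0.18), Cd84 (-0.86, SE 0.27) and Cd300c2 (-0.73, SE 0.17) had lower fitted values at day 10 and separate groups. Ly9 (-0.29, SE 0.27) and Cd22 (0.04, SE 0.26) had overlapping groups. Lag3 was higher at day 10 by 1.90 (SE 0.20), a 3.74-fold difference. The counts of calls, 4 lower and 1 higher of 8, stood beside 12.2% lower and 6.33% higher over all 14807 genes, and this contrast was among those that chose the genes. The 2742 calls over all genes became 1333 without PEL_3d 3, 1478 without PEL_10d 2 and 1629 without PEL_3d 1. The call of Cd300c2 was lost without PEL_10d 2 or PEL_3d 3, and Cd84 was called without PEL_10d 3.

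With GH the order over time was similar. In PEL_3d_GH Cd180 had 92.9, 94.8 and 55.1 CPM and in PEL_10d_GH 19.2, 20.1 and 16.9, a log2 fold change of -2.11 (SE 0.20). Lag3 had 11.5, 11.2 and 11.8 CPM and then 23.0, 31.9 and 24.7, a change of 1.20 (SE 0.14). The 2 genes moved in opposite directions, with separate groups. Of the other 6, Cd84, Cd300c2, Cd52 and Slamf9 were lower at day 10 in every library, at -0.98, -0.73, -0.72 and -0.47, while Ly9 and Cd22 overlapped, at -0.37 and -0.56. The calls, 4 lower and 1 higher of 8, stood beside 10.8% lower and 4.81% higher over 14838 genes. This contrast was among those that chose the genes, so the calls are a description and carry no test. They depended on single libraries: 2 were left without PEL_3d_GH 1, and 3 without PEL_3d_GH 2, PEL_10d_GH 1 or PEL_10d_GH 2. Cd180 and Lag3 were called in each of these. The calls over all genes were 2315 with every library and 704, 1070, 1169 and 967 in these fits. They rose to 4435 without PEL_3d_GH 3 and to 4121 with all hypothalamic groups in 1 fit.

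**Figure D2:**
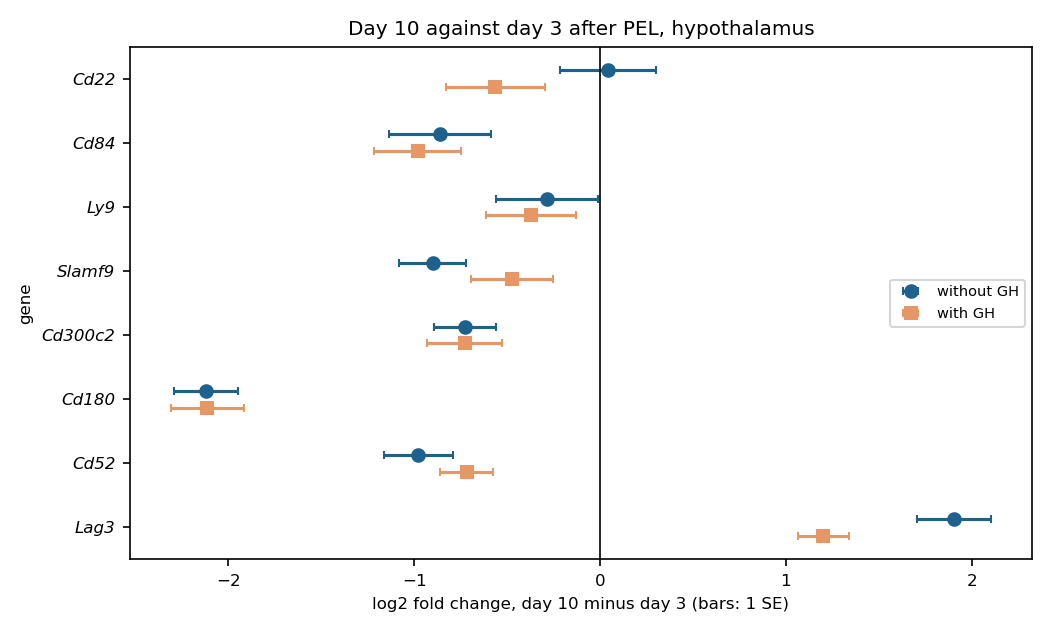
Fitted log2 fold change of day 10 against day 3 after PEL (horizontal axis) for each receptor (vertical axis), without GH (circles) and with GH (squares), with bars of 1 SE from 3 libraries in each group. Cd180 lies near -2.1 in both series and Lag3 lies to the right of 0, at 1.90 and 1.20.

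Microglia markers also rose after PEL and were lower at day 10 than at day 3, an interval over which Lag3 was higher and Cd22 overlapped. Of 11 markers, 11 were called higher at day 3 and 9 at day 10, and 10 were called lower at day 10 than at day 3. Their summed FPKM was 153 to 163 in Sham, 739 to 807 in PEL_3d and 339 to 387 in PEL_10d. The 9 markers of monocytes and border macrophages summed to 5.23 to 5.68 FPKM in Sham, 40.7 to 92.8 in PEL_3d and 10.3 to 25.1 in PEL_10d, with 8 called higher at day 3 and 4 at day 10. The 5 neutrophil markers summed to 0.856 to 4.30 FPKM in Sham, 5.74 to 13.9 in PEL_3d and 2.69 to 7.95 in PEL_10d, and 3 of 3 tested were called higher at day 3. No library shows which cells carried the receptors, and the part of these cells in the receptor results was not tested.

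Set against the mean log2 CPM of the 11 microglia markers in the same library, the receptors differed in their course. Ly9 stood at -6.74 ± 0.32 (mean ± SD on the log2 scale, pseudocount 0.1 CPM) in Sham, -2.47 ± 0.24 in PEL_3d and -1.69 ± 0.58 in PEL_10d, and Cd22 at -6.32 ± 0.25, -3.67 ± 0.30 and -2.52 ± 0.42. Both therefore gained on the markers at day 3 and were higher still on average at day 10. Their Sham values rest on 1 to 3 counts and move with the pseudocount, to -4.35 for Ly9 and -4.27 for Cd22 with 1 CPM. Cd84 gained on the markers by day 3 and changed less after it, at -2.45 ± 0.10, -0.70 ± 0.15 and -0.51 ± 0.65, and Cd52 and Cd300c2 had the same order of means. Slamf9 stood at -5.51 ± 0.14, -3.87 ± 0.22 and -3.63 ± 0.17, and with 1 CPM at -4.04, -3.71 and -3.35, so the size of its gain by day 3 depends on the pseudocount. For Cd52 the Sham and PEL_3d means with 1 CPM were -3.33 and -2.38, and for Cd300c2 -3.10 and -2.33. Cd180 gained and lost again, from -3.003 ± 0.35 to -0.49 ± 0.21 and -1.48 ± 0.25. Lag3 was lower against the markers at day 3, at -4.23 ± 0.35, than in Sham, at -2.997 ± 0.30, and then higher at day 10, at -1.23 ± 0.29. In each of these last 2 genes the 3 groups did not overlap.

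**Figure D3:**
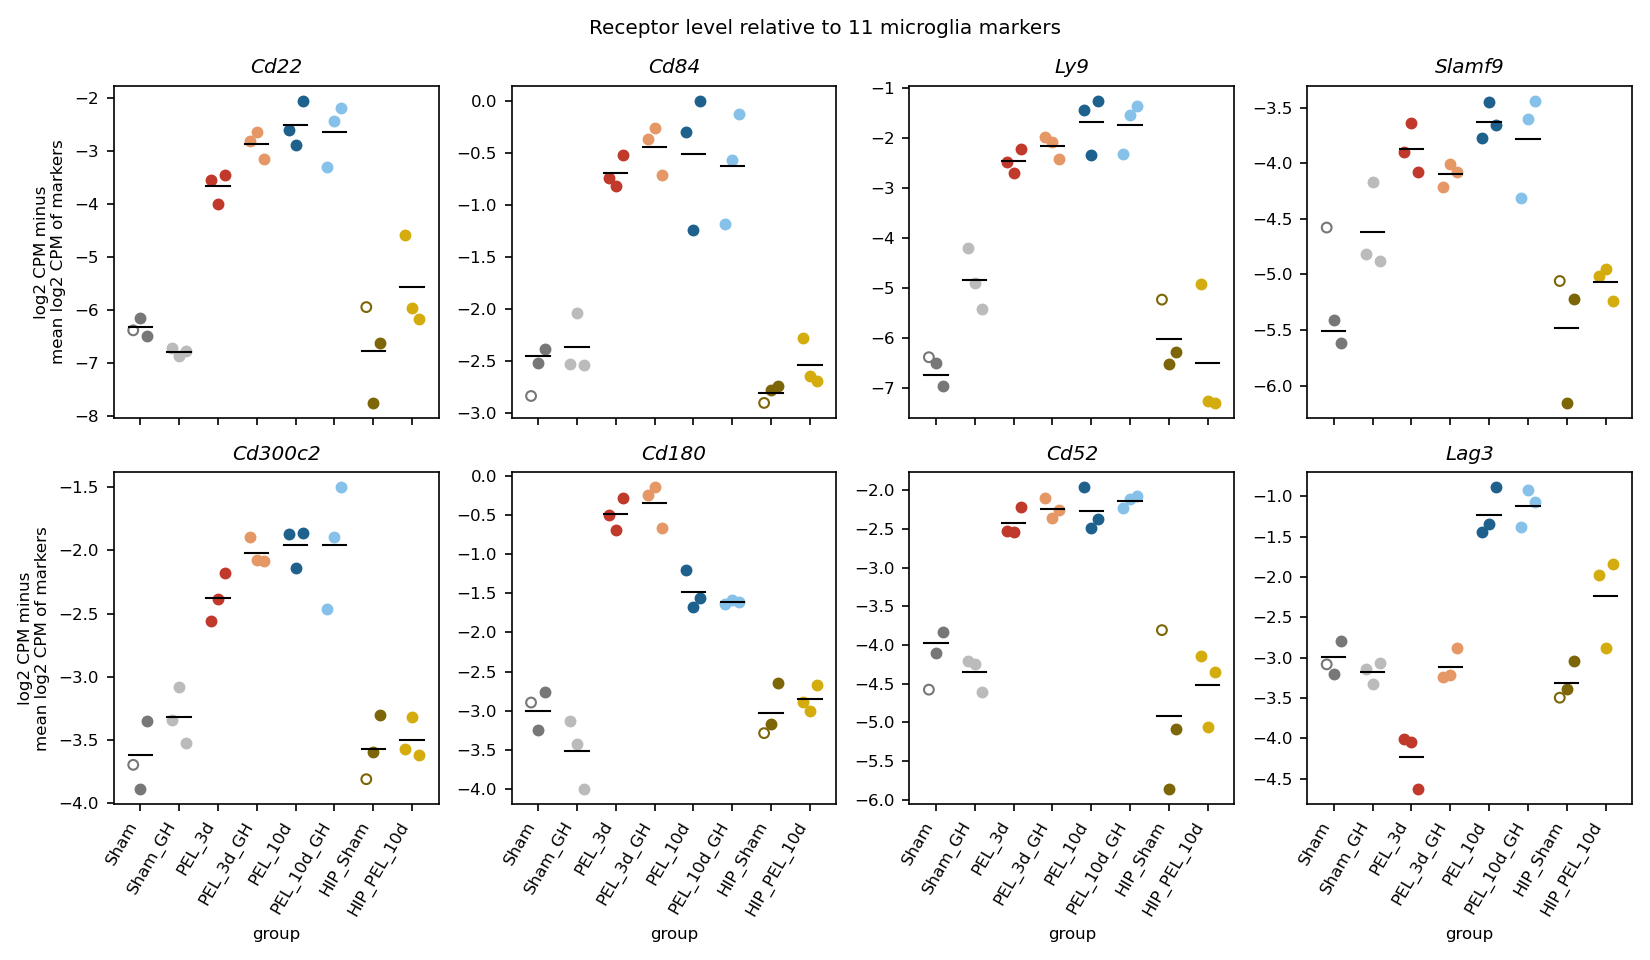
Log2 CPM of each receptor minus the mean log2 CPM of 11 microglia markers in the same library (vertical axis, pseudocount 0.1 CPM), by group (horizontal axis). Points are libraries, lines are group means, and open circles are the libraries labelled Sham 1 and HIP_Sham 1. Lag3 drops from a mean of -2.997 in Sham to -4.23 in PEL_3d and stands at -1.23 in PEL_10d.

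GH was compared within each day. At day 3 Lag3 had 11.5, 11.2 and 11.8 CPM with GH and 5.67, 5.63 and 4.14 without. The lowest library with GH was at 11.2 and the highest without at 5.67, and the log2 fold change was 1.17 (SE 0.16). Cd22 had 15.5, 16.6 and 9.64 CPM with GH and 7.78, 5.75 and 9.51 without, a change of 0.86 (SE 0.23). These were the 2 receptors whose groups did not overlap, and in Cd22 the nearest libraries were at 9.64 and 9.51 CPM. The other 6 had fitted changes from -0.18 (Slamf9) to 0.41 (Cd300c2). Over all 14798 genes edgeR called 0.0270% (4 genes), with 1006 at an unadjusted p under 0.05, and DESeq2 called 59. The 4 became 56 without PEL_3d_GH 3. This contrast was among those that chose the genes, so no test is given for them. In the same comparison the 3 neutrophil markers tested all had fitted changes below 0, with a median of -1.12 and 2 at an unadjusted p under 0.05. The 2 T and NK cell markers tested had a median of 0.72 with 1 under 0.05, and the 11 microglia markers a median of -0.01 with 2 under 0.05, and edgeR called 0 of these markers. The part of these cells in the receptor values was not tested.

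At day 10 the fitted GH changes were all above 0 and small, from 0.20 (Cd84) to 0.50 (Cd52). Cd52 had 12.7, 14.0 and 12.3 CPM with GH and 11.3, 7.51 and 8.78 without, and was the receptor with separate groups. Lag3 had 23.0, 31.9 and 24.7 CPM with GH and 16.4, 16.7 and 24.7 without, and the groups overlapped. Over all 14763 genes edgeR called 0%, with 906 at an unadjusted p under 0.05, and DESeq2 called 39. The 11 microglia markers all had fitted changes above 0 in this comparison, with a median of 0.41, and 7 had an unadjusted p under 0.05. The 2 neutrophil markers tested had a median of 1.54, and both had an unadjusted p under 0.05. The microglia markers summed to 454 to 533 FPKM with GH and 339 to 387 without, and the part of these cells in the receptor values was not tested. The difference between the GH changes at day 10 and day 3 was -0.69 (SE 0.26) for Lag3 and -0.59 (SE 0.42) for Cd22, and from -0.11 to 0.44 for the other 6. Over all 15091 genes edgeR called 0% for this difference, with 440 at an unadjusted p under 0.05, and DESeq2 called 0. Of the markers, 6 of 11 for microglia (median 0.34) and 2 of 3 for neutrophils (median 2.11) had an unadjusted p under 0.05 for the same difference, against 0 of 6 for T and NK cells, and edgeR called 0 of them.

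**Figure D4:**
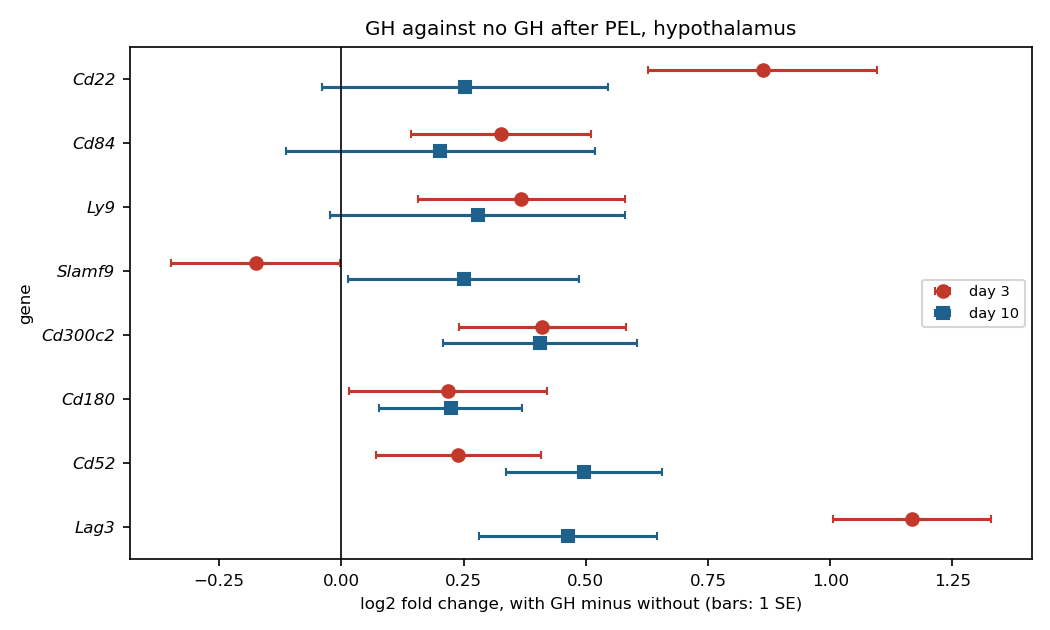
Fitted log2 fold change with GH against without (horizontal axis) for each receptor (vertical axis) after PEL at day 3 (circles) and day 10 (squares), with bars of 1 SE from 3 libraries in each group. Lag3 and Cd22 lie farthest to the right at day 3, at 1.17 and 0.86, and the day 10 values lie between 0.20 and 0.50.

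Without a lesion GH left the receptors low. Over all 14539 genes edgeR called 1.09% in this comparison (159 genes), with 2187 at an unadjusted p under 0.05. The 159 became 52 without Sham 2, 45 without Sham 3, 44 without Sham_GH 1, 13 with all hypothalamic groups in 1 fit, 0 with Sham 1 and 359 with no filter on low counts, and DESeq2 called 266. Cd180 had 1.86, 1.61 and 1.01 CPM in Sham_GH and Lag3 1.86, 1.73 and 2.02. Both, and Cd52, lay below the 2 Sham libraries, with fitted changes for Cd180 and Lag3 of -0.76 (SE 0.33) and -0.44 (SE 0.28). Slamf9, with 8, 16 and 8 counts against 6 and 5, lay above the 2 Sham libraries but not above Sham 1, which had 14. All 11 microglia markers had fitted changes below 0 in this comparison, with a median of -0.27 and 6 at an unadjusted p under 0.05, and their part in the receptor values was not tested. Ly9 had 13, 9 and 5 counts in Sham_GH and 2 and 1 in Sham, a ratio of 5.65 with a 95% counting interval from 1.74 to 29.1. Against Sham_GH, all 8 were called higher in PEL_3d_GH (26.9% of 14743 genes) and in PEL_10d_GH (17.7% of 14686 genes). These groups were among those that chose the genes, so nothing is read from these counts. Cd22, Ly9 and Slamf9 had too few counts in Sham_GH and passed the filter only through the lesioned libraries. For Cd84 the changes from Sham_GH were 4.45 (SE 0.23) at day 3 and 3.48 (SE 0.24) at day 10. For Lag3 they were 2.61 (SE 0.16) and 3.83 (SE 0.17). For Cd22, with 1 count in each Sham_GH library, the ratio was 223 (76.1 to 1086) at day 3 and 153 (51.9 to 743) at day 10.

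In order of group mean, 6 of the receptors had both sham groups lowest, then PEL_10d, PEL_10d_GH and the day 3 groups. Within that order Ly9 and Cd300c2 overlapped at each step among the lesioned groups, and Cd84, Cd180, Cd52 and Slamf9 had a gap between the day 10 and day 3 groups. Cd22 ran from PEL_3d (7.68 ± 1.88 CPM) through PEL_10d (7.92 ± 2.70) and PEL_10d_GH (9.42 ± 3.01) to PEL_3d_GH (13.9 ± 3.73; SD, n = 3), and each neighbour overlapped the next. Lag3 rose in steps, from Sham_GH and Sham through PEL_3d (5.14 ± 0.872 CPM), PEL_3d_GH (11.5 CPM, with libraries from 11.2 to 11.8) and PEL_10d (19.3 ± 4.74) to PEL_10d_GH (26.5 ± 4.75), and the last 2 overlapped.

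The hippocampal groups were among the 8 whose levels chose the genes, so these values too are a description. Lag3 had 1.41, 1.96 and 2.58 CPM in HIP_Sham and 7.46, 3.17 and 7.19 in HIP_PEL_10d. Every lesioned library lay above every HIP_Sham library, with HIP_PEL_10d 2 the closest. In the same comparison all 11 microglia markers had fitted changes above 0, with a median of 0.41 and 5 at an unadjusted p under 0.05. Their summed FPKM was 174 to 224 against 144 to 160 in HIP_Sham, or 158 to 160 without HIP_Sham 1. Their part in the receptor values was not tested. The fitted log2 fold change of Lag3 was 1.58 (SE 0.41), and 1.37 (SE 0.39) without HIP_Sham 1, whose markers were hypothalamic. Cd84 had 2.17, 3.04 and 3.19 CPM in HIP_Sham and 6.01, 3.73 and 3.92 in HIP_PEL_10d, with separate groups and a fitted change of 0.70 (SE 0.27), and 0.54 (SE 0.27) without HIP_Sham 1. Cd52, Cd180 and Cd300c2 had fitted changes of 0.77 (SE 0.59), 0.55 (SE 0.32) and 0.45 (SE 0.29) with overlapping groups, and without HIP_Sham 1 these were 1.41, 0.32 and 0.23. Over all genes edgeR called 0% of 14039 with all libraries, with 1434 at an unadjusted p under 0.05 and 231 called by DESeq2, and 873 of 14191 without HIP_Sham 1. The HIP_Sham libraries 2 and 3 had 4157 and 5224 FPKM of the choroid plexus gene Ttr against 28.5 to 767 in HIP_PEL_10d, and the part of that tissue in these values was not tested.

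The remaining 3 receptors had too few hippocampal counts to pass the filter with all libraries. Cd22 had 3, 0 and 2 counts in HIP_Sham and 18, 5 and 4 in HIP_PEL_10d. Ly9 had 6, 2 and 3 and 14, 1 and 1, and Slamf9 7, 3 and 8 and 13, 12 and 9. For Cd22 and Ly9 1 library, HIP_PEL_10d 1, held most of the lesioned counts, and it was also the highest for Cd84, Cd52, Slamf9, Cd300c2 and Lag3. In PEL_10d hypothalamus the same receptors had at least 95, 139 and 51 counts in each library.

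Beyond the 8, 68 related genes in 5 groups were followed with the full test: other SLAM receptors and adaptors, other Siglecs, other CD300 genes, checkpoint receptors and ligands, and partners and signalling proteins. In Sham_GH against Sham 34 of the 68 had enough counts to be tested, so many of those tested after PEL passed the filter only through the lesioned libraries where they were high. Their counts are a description and are not support for a difference from all genes. Of the 49 with enough counts at day 3, 38 rose from Sham and 2 fell, where 22.2% of all genes rose and 18.2% fell. At day 10 it was 29 and 1 of 49, beside 7.97% and 1.43%. From day 3 to day 10, 2 rose and 25 fell of 49, beside 6.33% and 12.2%. Their median log2 fold changes were 2.91, 1.63 and -0.84, and 2.59 at day 3 and 1.62 at day 10 with genes at the floor in Sham set to the lower bound of their change. The day 10 total of 30 was 14 without Sham 2 and 16 without Sham 3, where the calls over all genes went from 1392 to 205 and 304.

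Among SLAM receptors, Cd48, the ligand of Cd244a, rose from 0.551 ± 0.211 CPM in Sham (SD, n = 2) to 14.0 ± 4.59 in PEL_3d and 9.86 ± 2.46 in PEL_10d (n = 3). Its log2 fold changes by edgeR were 4.64 (SE 0.38, adjusted p = 6.96e-06) and 4.13 (SE 0.36, adjusted p = 0.000571). Cd244a, a receptor of NK and myeloid cells whose span encloses Ly9, had 1 count in the 2 Sham libraries and 3.87 ± 0.741 CPM in PEL_3d, and changed by -3.70 (SE 0.33, adjusted p = 0.000101) to day 10. The Ly9 libraries of the 2 days overlapped. Slamf8, a myeloid SLAM receptor, was the SLAM gene that rose from day 3 to day 10, by 1.92 (SE 0.44, adjusted p = 0.0169), with 5 to 14 counts in PEL_3d and 26 to 52 in PEL_10d. With GH its change over time was 2.10 (SE 0.34, adjusted p = 0.00468). Slamf7 had 1 count in the 2 Sham libraries, 3.24 ± 1.14 CPM in PEL_3d and 6.48 ± 4.29 in PEL_10d, and was called higher at both days. Of the adaptors, Sh2d1b1 (EAT-2) had 2 counts in Sham and was called higher in PEL_3d (1.02 ± 0.233 CPM, edgeR adjusted p = 0.00168) and not in PEL_10d (0.881 ± 0.519 CPM, adjusted p = 0.053). Sh2d1a (SAP), the lymphocyte adaptor, had 0 counts in all PEL_3d libraries and at most 6 in PEL_10d. In Sham_GH against Sham 1 of the 9 genes of this group had enough counts to be tested. Slamf7, Slamf8, Cd244a and Sh2d1b1 passed the filter only through the lesioned libraries where they were high. Their calls and p-values are therefore a description and not support.

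Of 6 Siglecs tested 5 rose at day 3 and 4 at day 10. Siglec1 (sialoadhesin of macrophages) rose from 0.558 ± 0.159 CPM in Sham to 21.2 ± 11.5 in PEL_3d, by 5.24 (SE 0.57, adjusted p = 4.91e-05) in edgeR, and changed by -1.49 (SE 0.36, adjusted p = 0.0197) to day 10. Cd33 rose by 2.33 (SE 0.13, adjusted p = 4.1e-07) and then changed by -0.85 (SE 0.10, adjusted p = 0.000501). Siglech and Siglece also fell from day 3 to day 10, at -1.01 and -1.24. Mag, a Siglec of myelin, rose over the same interval by 0.58 (SE 0.08, adjusted p = 0.00121). St6gal1, which makes the sialic acid linkage that Cd22 prefers, rose by 1.16 (SE 0.11, adjusted p = 2.66e-05) at day 3 and 0.70 (SE 0.14, adjusted p = 0.0183) at day 10. Ptpn6 (SHP-1), the phosphatase that Cd22 recruits, rose by 3.30 (SE 0.19, adjusted p = 5.17e-07) and 2.14 (SE 0.18, adjusted p = 0.000547).

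All 5 CD300 genes tested rose at both days, but of these Cd300a alone had enough counts to be tested in Sham_GH against Sham. The others passed the filter through the lesioned libraries, so their p-values are a description and not support. Cd300lf, an inhibitory receptor, had 0 counts in both Sham libraries and was at least 39.8-fold higher in PEL_3d and at least 11.7-fold higher in PEL_10d, against a floor of 3 counts per library. Cd300a rose at day 10 by 3.66 (SE 0.43, adjusted p = 0.00187), and Cd300ld3 at day 3 by 4.37 (SE 0.41, adjusted p = 1.92e-05). From day 3 to day 10 Cd300lf changed by -1.77 (SE 0.39, adjusted p = 0.0135) and Cd300ld3 by -1.40 (SE 0.38, adjusted p = 0.0312), and 3 of the 5 did not pass. These genes are close copies of each other and of Cd300c2, so their reads may be split between them.

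The checkpoint group was mixed. Of 20 genes tested at day 3, 12 rose and 2 fell. The 2 that fell were Cd200, at -0.40 (SE 0.08, adjusted p = 0.00354), and Cd47, at -0.29 (SE 0.07, adjusted p = 0.00814), ligands that quiet myeloid cells, and the Cd200 change turned to 0.02 with Sham 1. Lgals3 (galectin-3), a ligand of Lag3, rose from 1.24 ± 0.140 CPM in Sham to 108 ± 30.0 in PEL_3d, by 6.43 (SE 0.30, adjusted p = 1.54e-07), and stood at 55.1 ± 35.8 in PEL_10d. Its day 10 and day 3 libraries overlapped (edgeR adjusted p = 0.165). Fgl1, another Lag3 ligand, had 0.817 ± 0.0758 CPM in Sham, 0.553 ± 0.0961 in PEL_3d and 0.534 ± 0.210 in PEL_10d and passed at neither day. From day 3 to day 10, 7 of 19 checkpoint genes fell and 12 did not pass. Havcr2 (TIM-3) changed by -1.56 (SE 0.12, adjusted p = 4.81e-05), Lgals9 by -1.21, Pilra by -2.59 and Lair1 by -0.88.

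Most partners and signalling proteins followed the day 3 peak: 11 of 13 rose at day 3, 10 rose at day 10 and 10 fell from day 3 to day 10. Tyrobp (DAP12) rose by 3.83 (SE 0.16, adjusted p = 8.47e-08) at day 3 and Fcer1g by 3.70 (SE 0.16, adjusted p = 9.41e-08), both adaptors that carry activating motifs for other receptors. From day 3 to day 10 Ly86 changed by -1.61 (SE 0.11, adjusted p = 2.27e-05), Lyn by -1.42 and Inpp5d (SHIP1) by -1.41. With GH, 2 of 49 related genes rose from day 3 to day 10 and 23 fell, beside 4.81% and 10.8%, a total of 25 that was 12 without PEL_3d_GH 1, 15 without PEL_3d_GH 2 and 16 without PEL_10d_GH 1. The calls over all genes went from 2315 to 704, 1070 and 1169 in these fits. Against Sham_GH 40 rose and 3 fell of 48 at day 3 (26.9% and 25.2% over all genes), and 38 rose and 1 fell of 43 at day 10 (17.7% and 13.3%).

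GH called none of the related genes in edgeR. At day 3 it was 0 of 48, with 9 at an unadjusted p under 0.05 and 1 by DESeq2 (Tyrobp, 0.55). At day 10 it was 0 of 48, with 9 unadjusted and 1 by DESeq2 (Ly86, 0.70). Every Ly86 library with GH was above every one without at day 10, at 36.1 ± 4.34 against 22.2 ± 2.52 CPM, with an edgeR adjusted p = 0.35. In Sham it was 0 of 34 with none unadjusted and none by DESeq2. For the difference of the GH changes it was 0 of 52 with 4 unadjusted, and in the hippocampus 0 of 29 with 7 unadjusted, and DESeq2 called none in either. The hippocampal count holds for the fit that kept HIP_Sham 1, whose markers were hypothalamic. Without that library the calls over all genes went from 0 to 873.

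Among all genes with a mean of at least 1 FPKM, the genes whose pattern over 17 hypothalamic libraries was most like each receptor were partly shared. Cd22 and Ly9 had Gpnmb, Clec7a and Slc11a1 in common among their first 5, Cd84 and Slamf9 had Arl11 and C3ar1, Cd84 and Cd300c2 had Mpeg1, Cd300c2 and Slamf9 had Unc93b1, and Cd300c2 and Cd52 had Irf8. Cd180 and Lag3 shared none with another receptor. For Cd84 they were led by Mpeg1 and Cd68, phagocyte genes (Pearson r = 0.997 and 0.996 of log2(FPKM + 0.1)), for Cd300c2 by Tyrobp (0.994), for Cd52 by Il10ra (0.994) and for Cd180 by Tnfrsf13b (0.991). For Ly9 the first 3 were Hvcn1 (0.990), Cd48 (0.989) and Clec7a (0.983), for Cd22 Gpnmb (0.988), Cd300a (0.987) and Ctss (0.986), and for Slamf9 Arl11 (0.977). For Lag3 they were Apoe (0.964), Sirt2 (0.952), Slc44a1 (0.947), Clu (0.945) and Bfsp2 (0.941). For the mean of the 8 they were Ctss, Trem2, Slc11a1, Cd48 and Gpnmb, at 0.992 to 0.995. Over the same 17 libraries r between the receptors had a median of 0.958 and ranged from 0.551 to 0.989. Over the 12 lesioned libraries alone the other 7 kept r of 0.462 to 0.934 with each other, and Lag3 had r of -0.803 to -0.130 with them. The libraries of a group share their treatment and day, so these coefficients describe the group pattern and carry no p. They use FPKM, which for Cd22, Cd84 and Cd180 did not scale exactly with counts between libraries.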

How the data were processed

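RNA-seq of 24 mouse libraries, 3 in each of 8 groups, was read from 1 table of genes. Per the study's methods the authors aligned reads with HISAT2 and counted them with featureCounts, on GRCm38 (mm10) per the submitters' processing notes. The deposited expected counts per gene are not all whole (8.22% of values were not), and they were rounded to whole numbers before testing. The deposited FPKM values were calculated by the authors and used for levels per length, marker sums and correlations between genes. Gene symbols matched 22219 of 22274 identifiers, and positions are from GENCODE M21.

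The 8 receptors and all gene lists were chosen with earlier results of these data known. Named related genes were taken from the fixed lists by the rule set for them, and values of the receptors carry no p. Counts were filtered with filterByExpr (minimum count 10), scaled by TMM and tested with edgeR 4.0.16 (quasi-likelihood, R 4.3.3) over all genes of each comparison, calling adjusted p under 0.05 (Benjamini-Hochberg). DESeq2 1.42.0, other size factors, no filter, 1 fit over all hypothalamic groups, Sham 1 added back, the replicate number as a block and each library left out in turn were alternatives. The library labelled Sham 1 was left out of the main hypothalamic comparisons. The test was checked on simulated data. Totals were 15095267 to 17973494 counts per library. Counting intervals (95%) and the floor of 3 counts cover counting error only.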

Additional observations from a re-analysis of the deposited data

How the results depend on the processing

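Of the counts of called receptors and related genes, 234 stayed within 1.5 times the main count and 18 did not, over the alternatives run. Counts over all genes moved more, for PEL_10d against Sham from 1392 to 205 without Sham 2. For PEL_3d against Sham they went from 6035 to 3394 without Sham 2, 3887 without Sham 3 and 1683 with Sham 1. DESeq2 called 1 receptor (Lag3) and 1 related gene for GH at day 3, 1 related gene for GH at day 10, and 1 receptor (Lag3) in the hippocampus, where edgeR called 0. For GH at day 3, 1 receptor (Lag3) was called with no filter on low counts and 1 with all hypothalamic groups in 1 fit. With libraries left out in turn, the receptors called for GH at day 3 numbered 0 to 1 and the related genes 0 to 1. The related genes called for PEL_10d against Sham numbered 14 to 31 (main 30), and those for PEL_10d_GH against PEL_3d_GH 12 to 32 (main 25), with 2 to 6 receptors (main 5). The Cd200 change turned from -0.40 to 0.0227 at day 3 and from -0.27 to 0.14 at day 10 with Sham 1 added. Counts for receptors, and the calls of Lag3 for GH and in the hippocampus, come from values that chose the receptors. They are a description and carry no test. The cause of these shifts was not tested.

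The deviations of same-numbered libraries had correlations of both signs, from -0.426 to 0.355, and the numbers were not read as pairs. With the replicate number as a block the receptors called for PEL_10d_GH against PEL_3d_GH were 3 in place of 5 and the related genes 18 in place of 25. Related genes called for PEL_10d against PEL_3d were 33 in place of 27. Over all genes the calls with the block were 1109 in place of 2315 for PEL_10d_GH against PEL_3d_GH. For PEL_10d against PEL_3d they were 3367 in place of 2742. The alternatives on Pomc, on hippocampal labels and on the pseudocount were chosen after seeing the data. With 2 Sham libraries and low counts, Cd22 and Ly9 in Sham are known only within their counting intervals.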
